A study of Ovis aries with 2 samples.

Results

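Differentiated inner root sheath (IRS) cells were taken as the cells in which 4 IRS keratins, KRT71, KRT25, KRT27 and KRT28, summed to at least 100 UMIs per 10000 UMIs of the cell (CP10K) and in which at least 1000 genes had a value above 0. A UMI is a molecular tag that marks 1 captured RNA molecule. Under this definition 222 of 14037 cells, or 1.58%, were IRS keratin cells. They came from single-cell RNA sequencing of lambskin of Hu sheep, a breed with patterned lamb fleeces, in which straight wool lambs were set beside curly wool lambs. The straight wool library held 44 IRS keratin cells and the curly wool library held 178. Both groups were body side skin of lambs aged 3 days, with no treatment. The lambs of a wool type were pooled before the library was made, and the labels describe the phenotype of the curly library as waved wool. Cells from isolated hair follicles and cells from whole skin were mixed in each library, so the number of follicle cells also reflects how much of each was mixed. With 1 library per wool type, no difference between wool types could be tested, and intervals given here are 95% and cover counting error only.

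The IRS is the rigid tube of cells that surrounds the growing hair shaft. It is built from matrix progenitors at the base of the follicle under control of factors such as GATA3, and it hardens before the shaft does. Its cells fill with their own set of keratins and with trichohyalin-type granule proteins, which are modified by peptidylarginine deiminases and cross-linked by transglutaminases, and the sheath is then broken down by proteases so that the shaft can emerge. It is divided into the Henle layer, the Huxley layer and the IRS cuticle. Mutations of KRT71 and KRT25 are known causes of curly or woolly coats in several mammals.

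The marker genes were detected in most IRS keratin cells. KRT71 and KRT25 had at least 1 UMI in 44 of 44 straight and 178 of 178 curly IRS keratin cells, and the rule used both. RPTN, which encodes the granule protein repetin, and PRR9, which encodes a proline-rich protein, were not used by the rule. They were chosen with earlier results of these data known, so their detection describes the cells and is not an independent check of the label. RPTN was detected in 37 of the 44 straight cells and in 165 of the 178 curly cells. PRR9 was detected in 42 and 165 cells. After each cell was thinned to 3000 UMIs, RPTN had a UMI in 80.0% (exact binomial interval 64.4 to 90.9) of 40 straight and 78.0% (70.9 to 84.0) of 168 curly cells. In endothelial cells, which should lack it, the thinned shares were 12.8% and 16.4%, with median depths of 7420 and 5900 UMIs before thinning against 19882.5 and 21087 in IRS keratin cells. PRR9 gave 85.0% and 77.4% against 4.59% and 5.48% in endothelial cells. After thinning, both markers were thus detected in a larger share of IRS keratin cells than of endothelial cells in each library. How much of either marker came from free RNA was not tested. In all endothelial cells the summed IRS keratins had a median of 1.24 CP10K in the 129 straight and 4.46 in the 92 curly cells, with highest values of 38.8 and 51.2.

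IRS keratin cells made up 0.682% (0.496 to 0.914) of the 6452 straight cells and 2.35% (2.02 to 2.71) of the 7585 curly cells. The counting intervals did not overlap, but the shares rest on 1 pool and 1 mixture of follicle and whole skin cells per wool type, so wool type and library cannot be told apart. The rule has a threshold and the cells run across it. The lowest sums inside were 102.7, 103.2 and 105.0 CP10K in the straight library and 100, 101.6 and 104.9 in the curly library, and the highest outside were 98.8, 97.6 and 91.6 and then 99.6, 99.3 and 99.0. From 100 to under 120 CP10K there were 7 straight and 33 curly cells, and from 80 to under 100 there were 11 and 38 cells that had at least 1000 genes. A further 17 straight and 144 curly cells reached 100 CP10K but had fewer than 1000 genes, with median depths of 1012 and 783 UMIs. The IRS keratin cells were deep cells. Their median depth of 19882.5 and 21087 UMIs compares with 7373.5 and 7495 over all cells of each library, and their median was 3156.5 and 3090 genes, where the highest number of genes in any cell of each library was 3999 and 3998. Cells with more genes were not analysed here. Among the highest 6% of doublet scores in each library were 7 straight IRS keratin cells, or 15.9% of them, and 6 curly ones, or 3.37%. Of the 70 cell barcodes that occurred in both libraries, 4 belonged to an IRS keratin cell, and none was an IRS keratin cell in both.

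The 4 rule keratins, given here only as a description because they chose the cells, took 4.00% of all UMIs in the straight and 4.76% in the curly IRS keratin cells. KRT71, the type II keratin of the sheath, ran from 13.9 through a median of 79.6 to 798 CP10K in straight cells and from 3.71 through 79.6 to 821 in curly cells. KRT25, its type I partner, ran from 27.8 through 135 to 798 CP10K in straight cells and from 28.6 through 108 to 1104 in curly cells. Both were therefore present in every cell over a wide and overlapping range. KRT27 ranged from 0 through 8.20 to 669.7 CP10K in straight and from 0 through 10.1 to 696 in curly cells, and was detected in 34 and 168 cells. KRT28 ranged from 0 through 4.10 to 82.4 CP10K in straight and from 0 through 1.25 to 72.8 in curly cells, and was detected in 30 and 110 cells. UMIs count molecules and not length, and of the UMIs of the 4 rule keratins KRT25 gave 48.0% and 46.3%, KRT71 37.8% and 38.8%, KRT27 11.0% and 13.5%, and KRT28 3.11% and 1.44%. Of the keratins known for single IRS layers only KRT26, an IRS cuticle keratin, was matched in the table. It had 0 UMIs in straight and 14 UMIs in 5 curly IRS keratin cells. After thinning, 0 of 40 straight cells had a UMI, which allows a share of up to 7.50% if 3 counts are taken as the limit and of up to 8.81% by the exact binomial interval, and 0.595% (0.0151 to 3.27) of the 168 curly cells did. KRT72, KRT73, KRT74 and trichohyalin were not matched by name and were not analysed here, so the cells could not be assigned to layers.

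**Figure D1:**
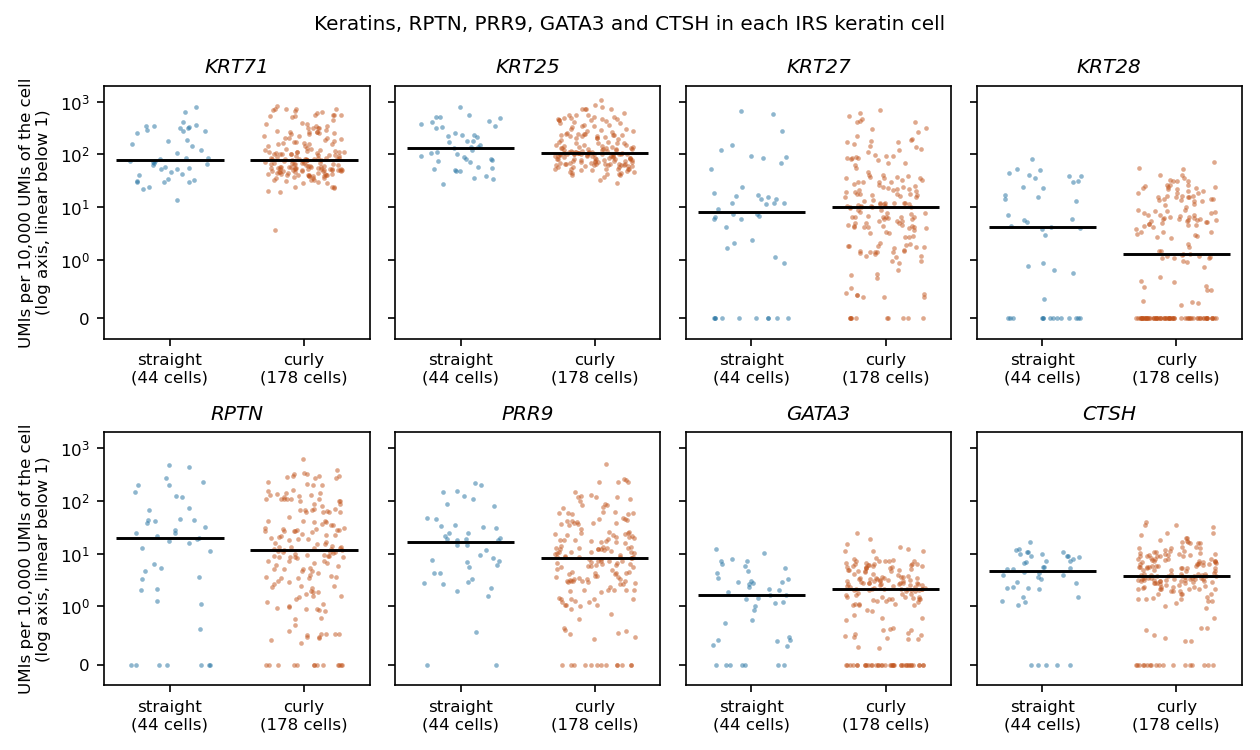
Level of 8 genes in each IRS keratin cell, as UMIs per 10000 UMIs of the cell on a log axis that is linear below 1. Points are cells, 44 from the straight and 178 from the curly library, and black lines are medians. KRT71 and KRT25 lie above 0 in every cell, while KRT27, KRT28 and the genes of the lower row include cells at 0, and the points of the libraries overlap in every panel.

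To see what these cells carried beside their keratins, their summed UMIs were set against those of 3 other groups of hair follicle cells from the same libraries. Hair shaft keratin cells were 115 straight and 240 curly cells in which shaft keratins reached 100 CP10K. Of the 12 shaft keratins named for this limit only 5 were matched by name, so cells rich mainly in the others could be missed. Lower IRS keratin cells were 94 and 298 cells with an IRS keratin sum from 20 to under 100 CP10K. Matrix-type cells were 272 and 548 cells with MSX1 and DCN, both taken as matrix markers, and with few UMIs of dermal collagens. All 3 groups had at least 1000 genes per cell. A gene was called where it had at least 100 UMIs and differed at least 4-fold in the same direction in both libraries. Since the rule set these groups apart, the differences describe the cells and are not tests.

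Against hair shaft keratin cells, 105 of 6036 genes, or 1.74%, were at least 4-fold higher in IRS keratin cells and 178, or 2.95%, were at least 4-fold lower. Of the 12 granule and cross-link genes with enough UMIs, 7 were higher and none was lower: RPTN, PRR9, PADI1, TGM1, CASP14, CRNN and CDSN. The median log2 ratio of the 12, averaged over the libraries, was 3.37 against -0.14 over all genes tested. RPTN reached 5233 and 6345 CPM, the UMIs per 1000000 summed over the group, in the straight and curly IRS keratin cells, against 24.7 and 33.2 CPM in hair shaft keratin cells. Its log2 ratios were 7.73 (7.35 to 8.13) and 7.58 (7.35 to 7.82). PRR9 was at 4158 and 2680 CPM against 256 and 47.8 CPM. PADI1, a peptidylarginine deiminase that turns arginine of granule proteins into citrulline, was at 34.2 and 26.6 CPM, log2 4.74 and 3.66 above hair shaft keratin cells. TGM1, a membrane-bound transglutaminase, was at 57.1 and 50.7 CPM, log2 3.37 and 3.82 above them. TGM3, the transglutaminase of hair and sheath hardening, went the other way, with 21.6 and 17.6 CPM against 124 and 54.7 CPM in hair shaft keratin cells, though only the straight library passed 4-fold. PADI3 had no UMI in the IRS keratin cells of either library.

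Genes outside the keratin and granule lists also stood out against hair shaft keratin cells. CTSH, the lysosomal cysteine protease cathepsin H, was at 503 CPM (455 to 555) in straight and 729 CPM (701 to 758) in curly IRS keratin cells, against 2.56 and 9.72 CPM in hair shaft keratin cells. In endothelial cells CTSH was at 64.5 and 102 CPM. SPINK5, an inhibitor of epidermal serine proteases, was at 300.4 and 342 CPM against 5.96 and 14.8 CPM in hair shaft keratin cells. TGM7, a little-studied transglutaminase, was low in IRS keratin cells at 38.0 and 73.4 CPM, yet the 4 other groups reached no more than 3.45 CPM. LRAT, which esterifies retinol for storage, was at 46.9 and 38.2 CPM against 0.426 and 0.211 CPM in hair shaft keratin cells, where it rested on 1 UMI in each library. ELOVL4, which makes the very long chain fatty acids of barrier lipids, was at 33.0 and 29.5 CPM against 0.426 and 0.423 CPM. FABP5, the epidermal fatty acid binding protein, was at 4149 and 3038 CPM against 765 and 495 CPM. LPAR6, a lipid receptor whose loss gives woolly hair in humans, was at 182.5 and 147.6 CPM against 9.80 and 6.76 CPM, but endothelial cells held 272 and 174 CPM. Of the 6 barrier lipid genes with enough UMIs, 3 were called higher (ELOVL4, FABP5 and LPAR6) and 1, SPTSSB, was called lower. Against all other cells these lists did not stand out in the same way. Of 12 proteases and inhibitors 1 was called higher and 5 lower there, with a median log2 ratio of -1.46 against -0.51 over all genes tested. Of 15 barrier lipid genes 1 was called higher and 2 lower there, with a median of 0.37.

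LOC101113339, a gene without a symbol that the RefSeq annotation places between FABP5 and FABP4, was at 3612 and 3692 CPM in IRS keratin cells against 44.3 and 41.4 CPM in hair shaft keratin cells. Of its UMIs 31.9% in the straight and 19.7% in the curly library lay in 1 cell. LOC101102105, beside SPRR4 and IVL in the cluster of cornified envelope genes, was at 3053 and 4808 CPM against 102 and 150 CPM, with 37.1% and 20.2% of its UMIs in 1 cell. These 2 loci are close to copies of related genes, and how the reads were shared between them is not known.

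Among lineage transcription factors, GATA3, the factor that directs matrix progenitors into the IRS, was called higher than in hair shaft keratin cells, and HOXC13 and LEF1, which act in the forming shaft, were called lower. GATA3 was at 236 and 242 CPM against 5.96 and 4.02 CPM. HOXC13 had 3.80 and 4.25 CPM, where hair shaft keratin cells had 102 and 190 CPM. LEF1 was at 24.1 and 17.9 CPM against 127 and 144 CPM. The other factors among the 21 with enough UMIs were not called, and the median log2 ratio of the list was 0.02. Outside the list, MAF, a basic leucine zipper factor, was at 71.0 and 70.3 CPM against 0.426 and 2.33 CPM. BHLHE22, a basic helix-loop-helix factor, was at 58.3 and 71.7 CPM against 0.852 and 0.634 CPM. Of 21 signalling genes with enough UMIs, none was called higher and 4 were called lower: BMP4, WNT3, ID1 and ID2. BMP4, a ligand of follicle differentiation, had 7.61 and 8.22 CPM, below the 77.1 and 59.6 CPM of hair shaft keratin cells. ID2, a target of BMP signals, was at 115 and 137 CPM against 755 and 780 CPM. WNT3 had 0 and 2 UMIs against 70 and 100.

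Adhesion genes divided. The desmosomal cadherins DSG1 and DSC1 were called higher than in hair shaft keratin cells, and DSG3, DSG4 and CDH3 were called lower, among 17 junction genes with enough UMIs. DSC1 had 33.0 and 31.2 CPM, above the 2.13 and 0.423 CPM of hair shaft keratin cells. DSG1 was at 62.1 and 47.3 CPM against 10.2 and 10.6 CPM. DSG4, the desmoglein of the hardening shaft, had 0 UMIs in the IRS keratin cells of both libraries against 92 and 98 UMIs in hair shaft keratin cells. PERP, a desmosome-associated membrane protein, was present in every IRS keratin cell at 3591 and 3714 CPM. The shaft's own keratins were called lower in 6 of 6 cases, and the rule for the hair shaft keratin cells used them. The 10 shaft keratins measured summed to 91.3 and 150 CPM in IRS keratin cells and to 22234 and 16827 CPM in hair shaft keratin cells.

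Against lower IRS keratin cells fewer genes differed: 29 of 5778, or 0.502%, were at least 4-fold higher and 51, or 0.883%, were at least 4-fold lower. The granule genes RPTN, PADI1, TGM1, CASP14 and CRNN were again higher, 5 of 12, with RPTN at 95.8 and 153 CPM in the lower cells. GATA3 had nearly the same level in both groups, 252 and 283 CPM in lower IRS keratin cells, and its log2 ratios were -0.09 (-0.36 to 0.16) and -0.23 (-0.36 to -0.10). LRAT was at 23.6 and 26.4 CPM there. None of 21 lineage factors was called. Of 17 cell cycle genes 4 were lower (PCNA, MCM3, TYMS and RRM2) and none was higher. All 19 cell cycle genes summed to 781 and 564 CPM in IRS keratin cells, 1692 and 1147 CPM in lower IRS keratin cells and 1989 and 1936 CPM in matrix-type cells. RRM2, a subunit of the enzyme that makes deoxynucleotides, had 0 UMIs in straight and 6 in curly IRS keratin cells. Against matrix-type cells, where 127 of 7864 genes, or 1.61%, were called higher and 433, or 5.51%, lower, 10 of 12 granule genes were called higher and 10 of 19 cell cycle genes lower. Against all other cells together, 57 of 13196 genes, or 0.432%, were called higher and 1438, or 10.9%, lower.

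**Figure D2:**
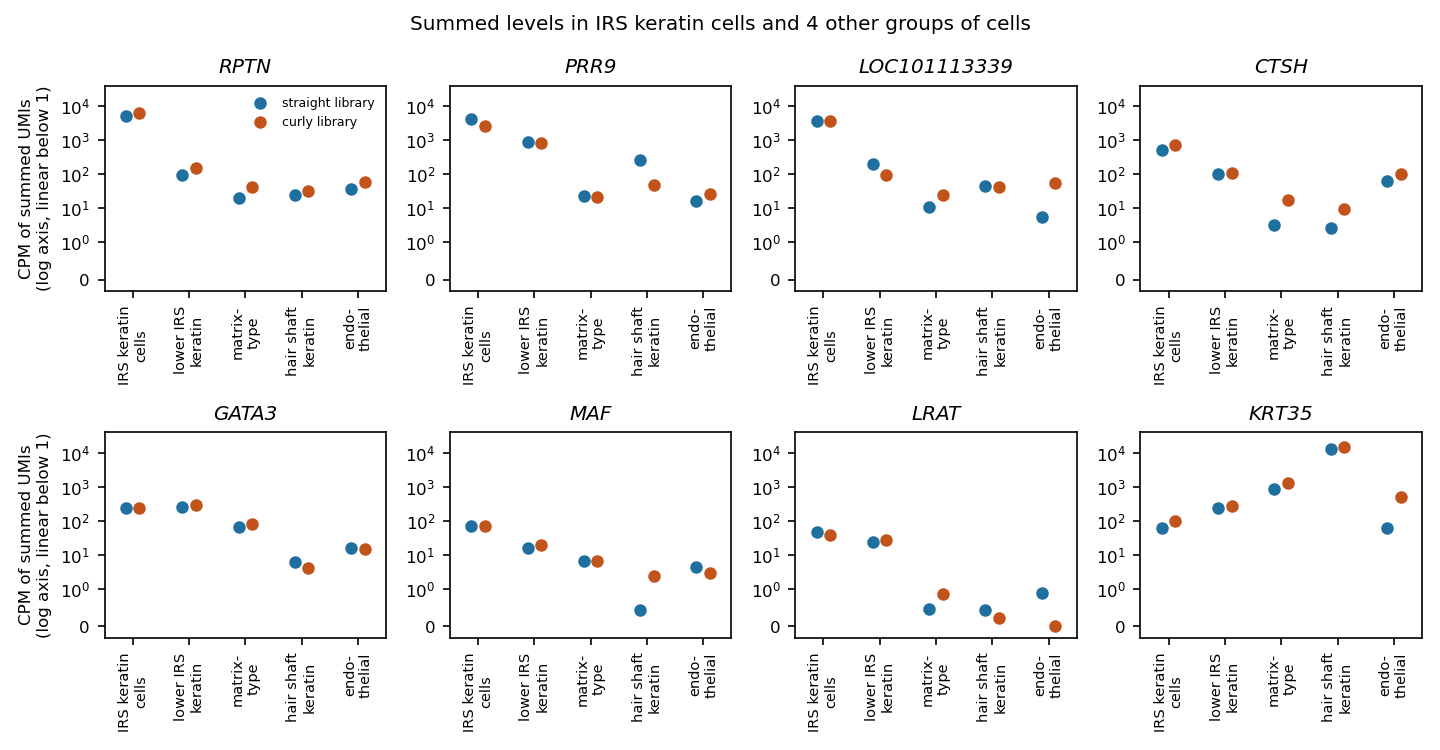
CPM of summed UMIs for 8 genes in 5 groups of cells, on a log axis that is linear below 1, with 1 point per library. RPTN, PRR9, LOC101113339 and CTSH are highest in IRS keratin cells in both libraries, GATA3 is as high in lower IRS keratin cells, and the shaft keratin KRT35 is highest in hair shaft keratin cells and low in IRS keratin cells.

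Markers of other cell types were low in IRS keratin cells, apart from the summed markers of the matrix, which are unlike one another. The 4 matrix markers MSX1, DCN, ID3 and LEF1 summed to 1285 and 1456 CPM against 1305 and 1847 CPM in all other cells. Matrix-type cells, which MSX1 and DCN helped to choose, held 6158 and 6631 CPM of them, and endothelial cells held 957 and 1344 CPM. Against all other cells 1 of the 4 matrix markers was called lower and 0 higher. Their log2 ratios, averaged over the libraries, ran from -3.77 to 0.65, so the sum does not describe each of them. The 6 endothelial markers summed to 3.80 and 3.12 CPM, with at most 3.35 CP10K in a single cell and 4 and 1 of the 6 at 0. The 6 leukocyte markers summed to 19.0 and 3.12 CPM, the 6 fibroblast markers to 43.1 and 47.0 CPM, the 5 smooth muscle markers to 41.8 and 57.5 CPM, and the 3 melanocyte markers to 0 and 0.283 CPM. The 4 sweat gland markers summed to 5.07 and 15.0 CPM, and the 4 markers of suprabasal epidermis to 436 and 635 CPM against 7298 and 10692 CPM in all other cells. Of the 11 keratins of the epidermis and outer root sheath, 10 were called lower than in all other cells. They summed to 1149 and 2193 CPM in the straight and curly IRS keratin cells against 27530 and 27165 CPM in all other cells. No straight cell but 19 curly cells held 100 CP10K or more of them, with highest values of 60.7 and 1082 CP10K. These 19 cells had a median of 3544 UMIs, 5 of them were called doublets, and 16 of them lay under 250 CP10K of IRS keratins.

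The IRS keratin cells were then divided by how much IRS keratin they held. At 250 CP10K or more there were 20 straight and 71 curly cells, with median depths of 17994 and 26368 UMIs, and from 100 to under 250 CP10K there were 24 and 107 cells, with 19882.5 and 20108 UMIs. The 4 rule keratins took 6.94% and 8.19% of the UMIs in the higher range and 1.48% and 1.51% in the lower range, and were left out of the totals for every other gene. The ranges are parts of a score that chose the cells and not cell types. A gene was called where it had at least 100 UMIs and differed at least 2-fold in the same direction in both libraries, and 63 of 3115 genes, or 2.02%, were higher and 37, or 1.19%, were lower in the higher range.

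Of 10 granule and cross-link genes 6 were higher and none was lower, and their median log2 ratio, averaged over the libraries, was 1.94 against -0.04 over all genes tested. RPTN was at 11108 and 13273 CPM in the higher range against 859 and 815 CPM in the lower. The log2 ratios of RPTN were 3.69 (3.54 to 3.85) and 4.03 (3.95 to 4.10). Over 4 ranges with cuts at 250, 500 and 1000 CP10K, RPTN ran from 859 through 3259 and 15624 to 44928 CPM in straight cells and from 815 through 4884 and 14214 to 28145 CPM in curly cells, although only 2 straight cells lay in the top range. LOC101113339, with log2 ratios of 5.22 and 4.80, and LOC101102105, with 5.15 and 5.62, exceeded RPTN in both libraries. CASP14, a caspase of cornifying cells that cleaves filaggrin, had log2 ratios of 5.55 and 4.32, and was detected in only 6 straight and 23 curly IRS keratin cells. FLG itself had log2 ratios of 5.65 and 5.10, and was detected in 11 and 38 cells. Most of its straight UMIs lay in a single cell, so its straight ratio rests largely on that cell. Of 9 proteases and inhibitors 5 were higher and none was lower. CTSH, with log2 ratios of 1.51 and 2.17, and SPINK5, with 1.33 and 1.52, were both among them. ENDOU, a secreted endoribonuclease, had log2 ratios of 3.11 and 3.98, and ELOVL4 had 2.04 and 2.08. Of 12 junction genes none was called, and their median was 0.66.

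Genes lower in the higher range included HES2, a transcriptional repressor of the hairy and enhancer of split family, with log2 ratios of -5.25 and -2.68. HES2 was detected in only 22.7% of straight and 32.6% of curly IRS keratin cells. HPRT1, an enzyme of purine salvage, had log2 ratios of -1.99 and -1.61, and PKIB, an inhibitor of protein kinase A, had -3.85 and -1.64. GMNN, which restrains DNA replication licensing, had -3.44 and -1.74, and ID2 had -1.62 and -1.27. PKIB was detected in 17 straight and 64 curly cells, and GMNN in 13 and 42. None of the 15 lineage factors with enough UMIs was called in either direction. GATA3 missed the 2-fold limit in the straight library, with log2 ratios of -0.95 (-1.43 to -0.49) and -1.18 (-1.40 to -0.96), and over the 4 ranges it ran from 313 through 234 and 108 to 0 CPM in straight and from 344 through 206 and 154 to 47.2 CPM in curly cells. MAF, at 59.8 and 80.7 CPM in the lower and 91.4 and 65.9 CPM in the higher range, had intervals that included 0. LRAT, with log2 ratios of 0.07 and -0.23, also had intervals that included 0. PRR9 went in opposite directions in the libraries, with -0.79 in straight and 0.72 in curly cells.

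**Figure D3:**
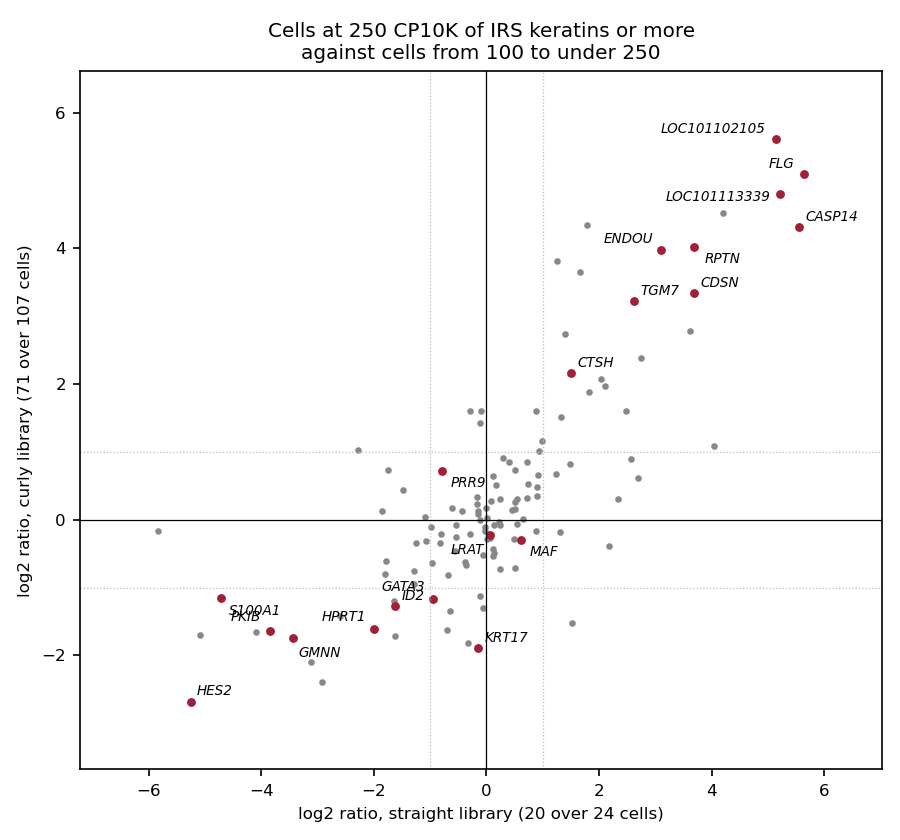
Log2 ratio of cells at 250 CP10K or more of IRS keratins over cells from 100 to under 250, in the straight (x axis) and curly (y axis) library. Each point is a named gene with at least 100 UMIs in the IRS keratin cells and a UMI in all 4 sets of cells; the 4 rule keratins are left out and dotted lines mark 2-fold. RPTN, FLG and LOC101102105 lie at the upper right, HES2, PKIB and GMNN at the lower left, and PRR9 on opposite sides of 0 in the libraries. Most straight UMIs of FLG lay in a single cell.

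KRT28 took a smaller share of the rule keratin UMIs in the higher range than in the lower range. Its share was 10.8% and 5.67% in the lower range and 1.19% and 0.617% in the higher range. The share of KRT27 went from 6.18% and 3.76% to 12.2% and 15.3%. The share of KRT25 also fell in both libraries, in curly cells from 54.1% to 44.8%. That of KRT71 rose in both, in curly cells from 36.5% to 39.3%. The ranges were cut on the sum of these keratins, so the shares depend on the split and are descriptions. Across cells, on a log scale of CP10K, the correlation of KRT28 with KRT71 was -0.39 over 44 straight and -0.38 over 178 curly cells, and that of KRT25 with KRT71 was 0.90 in both libraries. RPTN correlated with KRT71 at 0.84 and 0.80 and with KRT28 at -0.55 and -0.43. Cells of a correlation share their library, differ in depth and were selected on the sum of these keratins, so the coefficients are descriptions.

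Cells with at least 10 CP10K of KRT28 numbered 16 of 44 straight cells (36.4%, 22.4 to 52.2) and 41 of 178 curly cells (23.0%, 17.1 to 29.9), with overlapping counting intervals. In the straight library they held less IRS keratin than the other cells, a median of 176 against 348 CP10K, and were shallower, 12748.5 against 22384.5 UMIs. In the curly library these medians were 205 against 209 CP10K and 22374 against 20196 UMIs. The keratin difference was thus small there, and the depth difference went the other way. The division by KRT28, itself a rule keratin, was chosen after the values were seen, so its differences are descriptions. With the rule keratins left out of the totals, 37 of 3115 genes, or 1.19%, were at least 2-fold higher in KRT28-rich cells in both libraries. A further 89, or 2.86%, were at least 2-fold lower. PRR9 was higher, at 9455 against 2014 CPM in straight and 4704 against 2213 CPM in curly cells, and GATA3 was higher, at 462 against 148 and 428 against 198 CPM. HPRT1 was higher by log2 1.78 and 1.80, GMNN by 3.07 and 2.34, PKIB by 2.20 and 1.92, and S100A1, a calcium-binding protein, by 3.25 and 2.05. ACSS2, which makes acetyl-CoA from acetate, was higher by 2.60 and 2.17 without being called between the keratin ranges, where its log2 ratios were -0.56 and -0.46.

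RPTN was lower in KRT28-rich cells, at 937 against 7493 CPM in straight and 2188 against 8085 CPM in curly cells, and LOC101102105 was lower with log2 ratios of -5.43 and -5.50. Of 10 granule and cross-link genes 2 were higher, PRR9 and PADI4, and 4 were lower. The peptidylarginine deiminases were on opposite sides. PADI4 was at 106 against 23.0 CPM in straight and 56.7 against 15.7 CPM in curly cells, while PADI1 was at 12.7 against 46.0 and 11.1 against 33.3 CPM. Between the keratin ranges their signs were also opposite, with log2 ratios of -1.80 and -0.80 for PADI4 and 1.82 and 1.89 for PADI1. PADI4 missed the 2-fold limit in the curly library and was not called there. These 2 genes had 37 and 27 UMIs in straight and 86 and 94 UMIs in curly cells, and 35.1% and 33.3% of the straight UMIs lay in 1 cell each. FABP5, at 4125 against 4411 and 4053 against 2915 CPM, was not called.

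**Figure D4:**
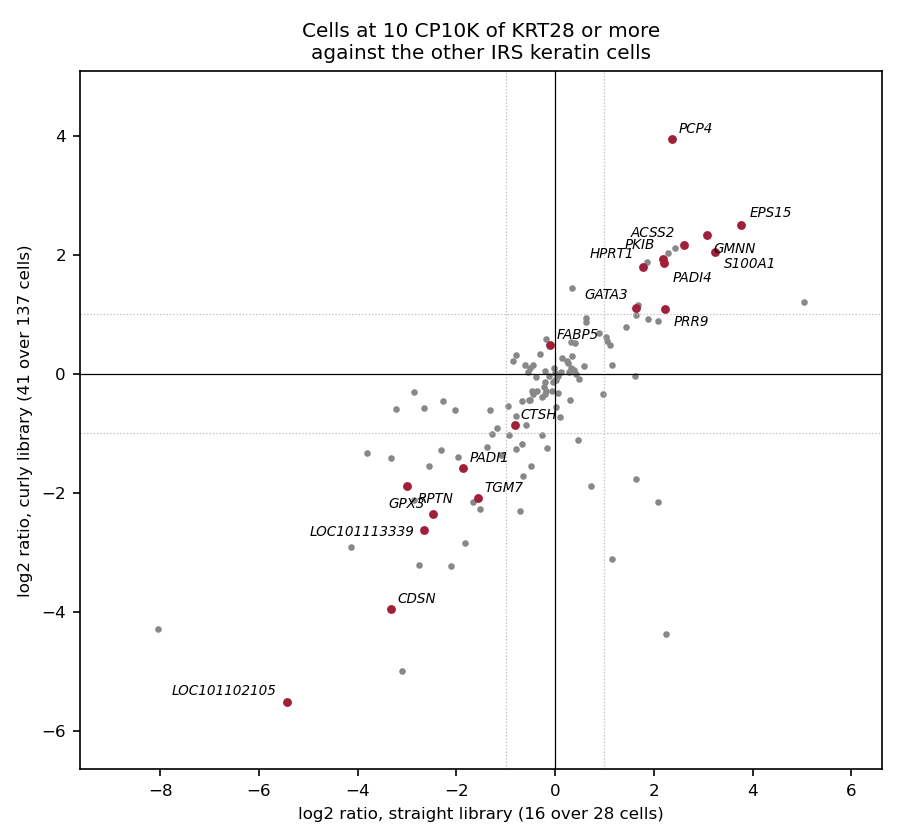
Log2 ratio of cells with at least 10 CP10K of KRT28 over the other IRS keratin cells, in the straight (x axis) and curly (y axis) library. Each point is a named gene with at least 100 UMIs in the IRS keratin cells and a UMI in all 4 sets of cells; the 4 rule keratins are left out and dotted lines mark 2-fold. PCP4, EPS15, GMNN and PADI4 lie at the upper right, RPTN, PADI1, CDSN and LOC101102105 at the lower left.

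Between wool types, RPTN, GATA3, MAF and each of the 4 rule keratins differed less than 2-fold. Summed over the 4 rule keratins the curly level was log2 0.25 above the straight level in summed UMIs but -0.22 after thinning and -0.11 as a mean over cells, so no direction held. RPTN, at 6345 against 5233 CPM, differed by log2 0.28 (0.23 to 0.33), and by 1.15 in the same direction in all other cells. GATA3 differed by 0.04 (-0.19 to 0.27), MAF by -0.01 and PERP by 0.05. PRR9 was lower in curly cells by log2 -0.63 (-0.69 to -0.58), with cell medians of 16.6 CP10K in straight and 8.14 in curly cells over widely overlapping ranges, but among cells at 200 CP10K or more the log2 ratio of PRR9 was 0.46. KRT28 was lower by -0.86 (-0.97 to -0.75). None of the 12 junction genes and none of the 15 lineage factors with enough UMIs differed 2-fold.

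Over all 3119 genes with at least 100 UMIs in the IRS keratin cells, 74, or 2.37%, were at least 2-fold higher and 82, or 2.63%, at least 2-fold lower in curly than in straight cells, and the median log2 ratio was -0.17. Scaling by trimmed means (TMM) lowered the curly scale by log2 0.30 and gave 117 higher and 28 lower genes in place of 74 and 82. Of the 74 higher genes 33, and of the 82 lower genes 12, were called in the same direction in all other cells of the libraries. Several of the most extreme ones were of this kind. The share of all 3119 genes past 2-fold in all other cells is not given here. These overlaps, and the counts below that leave such genes out, are therefore counts only. IFI6, induced by interferon, had 0 UMIs in straight and 912 UMIs in 158 of the 178 curly cells, at least 67.9-fold higher against a floor of 3 UMIs over the straight cells, and was higher by log2 5.85 in all other cells. ISG15, a ubiquitin-like interferon product, had 2 and 225 UMIs. LOC114109518, without a symbol, was at 35.5 and 1628 CPM with log2 5.68 in all other cells, and LOC114115666 had 101 UMIs in straight and 2 in curly cells with -6.52 in all other cells. HBB had 803 UMIs in the curly cells, all in 1 cell. The share of UMIs in 76 ribosomal protein genes was 42.3% and 45.8%.

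Among genes lower in curly cells, 37 of the 82 stayed at least 2-fold lower without the cell that held the most of their UMIs and were not 2-fold lower in other cells. S100A1 was at 255 and 30.9 CPM, log2 -3.04 (-3.39 to -2.70), but it was detected in only 10 straight cells. PKIB was lower by log2 -2.06, PCP4, a calmodulin regulator, by -2.19, and GMNN by -1.91, and they were detected in 17, 9 and 13 straight cells. Among cells at 200 CP10K or more these differences were smaller or turned, with log2 ratios of 0.60 for S100A1, 0.56 for PCP4, -0.33 for GMNN and -1.09 for PKIB. All 4 genes were higher in KRT28-rich cells, which were 36.4% of the straight and 23.0% of the curly cells, and the part of those cells in the difference was not tested. FLG was at 740 and 106 CPM in the straight and curly cells, log2 -2.80, and 56.8% of its straight UMIs lay in 1 cell, without which the log2 ratio was -1.98. In all other cells FLG was higher in the curly library, by 1.91. LOC101110219, which the RefSeq annotation places between the keratin genes KRT2 and KRT74, was at 361 and 62.3 CPM, in 7 straight and 33 curly cells, and 50.2% of its straight UMIs lay in 1 cell. As a mean over cells its log2 ratio was 0.068, against -2.54 in summed UMIs.

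Of the 74 genes higher in curly cells, 40 passed both checks made for the lower genes. They stayed at least 2-fold higher without the cell that held the most of their UMIs and were not 2-fold higher in other cells. TXNIP, in 7 straight and 90 curly cells, was higher by log2 2.03 against 0.12 in all other cells. FXYD6, in 17 and 123 cells, was higher by 1.51 against 0.34. CDSN, an adhesive protein of cornified cells, was at 29.2 and 155 CPM with log2 2.41. Its ratio of 2.90 in all other cells left it out of the 40. Of 7 outer sheath and epidermal keratins with enough UMIs, 3 were higher. KRT5 was at 210.4 and 486 CPM, KRT14 (listed as LOC101118459, a gene ID that the RefSeq table names KRT14) at 172 and 399 CPM, and KRT6A, a companion layer keratin, at 15.2 and 96.3 CPM. In all other cells the log2 ratios of KRT5, KRT14 and KRT6A were -0.24, 0.27 and 1.54. KRT5 and KRT14 were therefore among the 40 and KRT6A was not. Without the 19 curly cells rich in these keratins the log2 ratio of KRT5 was 0.17 in place of 1.21, and that of KRT6A was 1.27 in place of 2.66. CTSH was at 503 and 729 CPM, log2 0.54 (0.38 to 0.69), and TGM7 at 38.0 and 73.4 CPM, log2 0.95 (0.40 to 1.55), both below 2-fold.

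**Figure D5:**
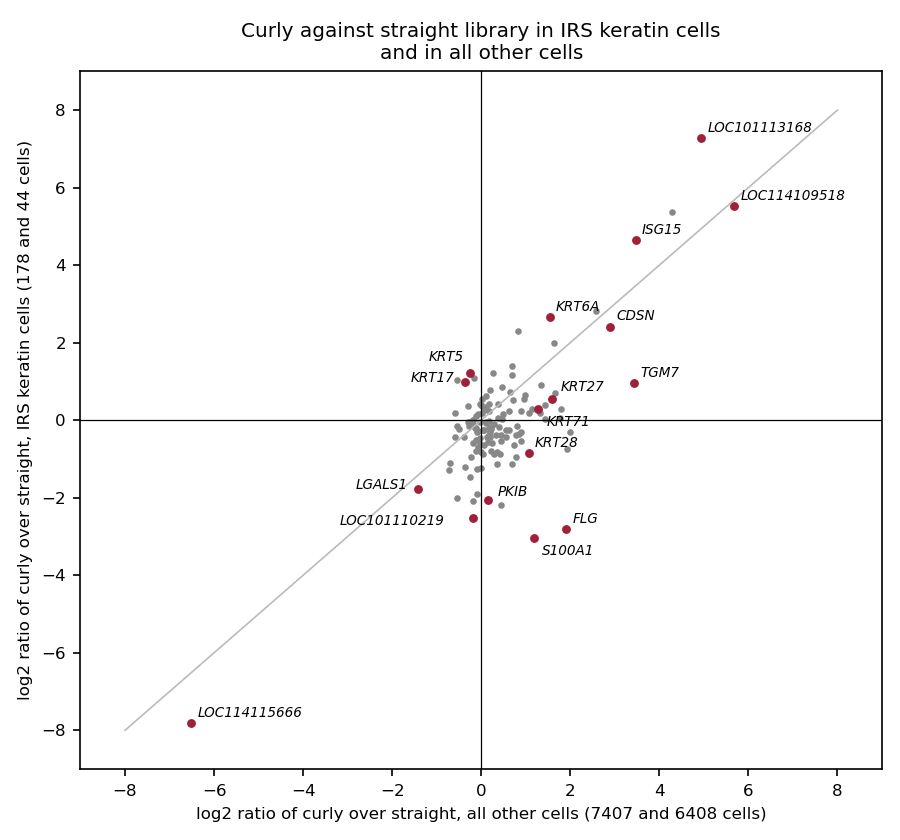
Log2 ratio of the curly over the straight library in IRS keratin cells (y axis, 178 and 44 cells) and in all other cells (x axis, 7407 and 6408 cells). Each point is a named gene with at least 100 UMIs in the IRS keratin cells and a UMI in all 4 sets of cells, and the grey line marks equal ratios. ISG15, LOC114109518 and LOC114115666 lie on the same side of 0 in both, while FLG, S100A1 and PKIB lie below 0 in IRS keratin cells and above 0 in all other cells.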

How the data were processed

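The authors made 10x Genomics libraries from pooled lambskin, aligned the reads to the sheep assembly Oar_rambouillet_v1.0 with STAR inside Cell Ranger (version 3.0.2 in the submitters' processing notes), and filtered and normalized the cells in Seurat. The deposited table has 1 column per cell, and its values are natural log values: each cell's UMIs were brought to a total of 10000, and 1 was added before the log. A count table had been assumed in the plan. Whole UMIs were recovered from the deposited values: all 28552149 values above 0 in 18161 genes were whole within 0.01. No cell of the table had more than 3999 genes.

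UMIs were summed per library and group of cells and expressed as CPM, whose intervals are exact Poisson ones, shares had Clopper-Pearson intervals, and ratios had intervals from an exact binomial split, all at 95% and for counting error only. No test was made, since each wool type had 1 library. Calls needed at least 100 UMIs in the groups compared and at least 4-fold between groups, or 2-fold between libraries and within IRS keratin cells. Where 1 side had no UMI, 0.5 UMI was added to both to call a gene, and folds were bounded against 3 UMIs. The named genes were the rule keratins and markers, the gene lists, and the genes with the largest and smallest ratios of each comparison (10 or 20 in each). The cells and lists were chosen with earlier results of these data known. The planned comparison of 4 keratin ranges was replaced by a split at 250 CP10K, since only the lowest range held 20 cells in each library. Doublets were scored with Scrublet through scanpy 1.11.5 and left out only as an alternative. Other alternatives changed the keratin and gene limits, the scaling (TMM, median of ratios, thinning to 3000 UMIs, mean over cells) and the UMI filter. Computation used Python 3.11.15, numpy 2.4.6 and scipy 1.17.1, and the calling steps were tested on simulated data. Of 3912 genes listed by locus number, 2582 matched the RefSeq table of ARS-UI_Ramb_v3.0 and 331 received a symbol, and 235 of 258 list genes were found. Gene neighbours were read from that table, no coordinates were used, and no sequences are shown because none were given.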

Additional observations from a re-analysis of the deposited data

How the results depend on the processing

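Each wool type had 1 pooled library, so spread between lambs was not measured. No paired analysis was possible because each wool type had 1 library and no test was made. Several comparisons were chosen after seeing the data. These were the division by KRT28 and the comparisons without the most abundant cell of a gene or without cells rich in epidermal keratins. The ratios set against all other cells and the ranges split at 250 CP10K were also chosen then. The split could not be made at a limit of 200 CP10K, where under 10 straight cells remained in the lower range. The causes of the changes below were not tested, except that thinning and UMI limits by construction change how many genes are counted.

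The straight share of IRS keratin cells, 0.682%, became 1.26% at 50 CP10K, 0.403% at 200 CP10K and 0.945% with no minimum of genes. The curly share, 2.35%, became 3.92%, 1.20% and 4.25%, and 1.91% at 1500 genes. The curly share stayed above the straight share in each. For KRT26 the curly share of cells at 10 CP10K was 0%.

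In place of 74 genes higher in curly cells there were 117 with TMM, 21 after thinning, 389 at 20 UMIs and 1229 at 1 UMI. In place of 82 lower genes there were 130 at 50 CP10K, 36 at 200 CP10K, 28 with TMM, 37 with median of ratios, 9 after thinning, 623 at 20 UMIs, 2371 at 1 UMI, 151 with ranges weighted equally and 48 without the most abundant cell. TMM moved the curly scale by log2 -0.30 and median of ratios by -0.23, which raised the ratios by as much, and 105 genes were higher under the latter. In place of 105 genes higher than in hair shaft keratin cells there were 27 after thinning, 215 at 20 UMIs and 406 at 1 UMI. In place of 63 genes higher in the higher keratin range there were 11 after thinning, 152 at 20 UMIs and 413 at 1 UMI, and in place of 37 lower genes there were 145 at 50 CP10K, 4 after thinning, 261 at 20 UMIs and 766 at 1 UMI.

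The curly over straight log2 ratio of the summed rule keratins, 0.25, was 0.35 at 50 CP10K, 0.29 at 200 CP10K, 0.33 without doublets, 0.55 with TMM, 0.48 with median of ratios, -0.11 as a mean over cells and -0.22 after thinning. Curly over straight ratios changed sign for KRT26 (-2.51) and CDH3 (-0.35) at 50 CP10K, and for EPS15 (1.32), S100A1 (0.60), PCP4 (0.56), LOC101110219 (2.84) and HES2 (2.106) at 200 CP10K. They also changed sign for LOC101110219 (0.068) as a mean over cells, for KRT26 after thinning (-0.49), and for CDSN (-0.49) and LOC114109518 (-0.16) after the ratio in all other cells was subtracted.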
